A study of Mus musculus with 28 samples.

Results

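The clustered protocadherins were taken as every gene of the RNA-seq count tables on chromosome 18 whose symbol starts with Pcdha, Pcdhb or Pcdhg, which gave 25 of 37991 genes. They formed an alpha cluster of 2 annotated genes, a beta cluster of 22 and a gamma cluster of 1, on the plus strand of mm9 between 37089939 and 38001527. The small number of alpha and gamma genes comes from the annotation. Pcdha11 (ENSMUSG00000007440) held 10 transcripts and 13 exon blocks over the whole alpha cluster, and Pcdhgc5 (ENSMUSG00000023036) held 10 transcripts and 11 blocks over the whole gamma cluster. Of the 10 transcripts of Pcdha11, 9 used its 3 constant exons, and all 10 of Pcdhgc5 used those of the gamma cluster. Each gene therefore sums reads from many alternative first exons and from the constant exons that these share, and its value is that of a cluster rather than of 1 isoform. Pcdha3, a first exon with a short second block, was annotated apart, and the beta genes were nearly all single exons.

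Clustered protocadherins are cadherin-like adhesion molecules that neurons display in different combinations, which lets a neuron recognise its own branches. In the alpha and gamma clusters a variable first exon, with its own promoter, is spliced to constant exons that encode the shared intracellular end, while each beta gene encodes a complete protein. Promoter choice is known to involve DNA methylation, the insulator protein CTCF and cohesin. KAP1 (TRIM28) is a co-repressor that KRAB zinc finger proteins bring to DNA, above all to transposable elements, where it directs trimethylation of lysine 9 of histone H3 (H3K9me3).

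The cells were J1 mouse embryonic stem cells (mESCs), grown in 2i medium with LIF and collected 5 days after transduction with an empty hairpin vector (shEmpty) or one against Kap1 (shKap1), under puromycin. RNA-seq compared WT cells with DNMT TKO cells, which lack Dnmt1, Dnmt3a and Dnmt3b, and TET TKO cells, which lack Tet1, Tet2 and Tet3. Each hairpin had 3 libraries in WT, 3 in DNMT TKO and 2 in TET TKO, 16 in all, with 18108431 to 29373696 reads on genes. Each genotype was 1 line, so line and genotype cannot be told apart. WT cells also gave H3K4me3 and H3K27me3 ChIP-seq (n = 2 each) and 5-hydroxymethylcytosine (5hmC) hMeDIP-seq with input (1 library per condition used).

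Trim28, the gene for KAP1, was 1752 ± 207 CPM (counts scaled to the library's reads on genes times its TMM factor, SD, n = 3) in WT shEmpty and 165 ± 21.9 in WT shKap1. It was 1869 ± 197 and 427 ± 91.5 in DNMT TKO (n = 3), and 1835 ± 89.8 and 166 ± 3.84 in TET TKO (n = 2). The fall was smaller in DNMT TKO than in WT by 1.28 ± 0.21 on the log2 scale (adjusted p = 0.000802, edgeR). Without knockdown, Dnmt1, Dnmt3a and Dnmt3b fell in DNMT TKO, and Tet1 and Tet2 fell in TET TKO, by 1.49 to 3.04 on the log2 scale. Tet3 was 13.9 ± 2.86 CPM in WT and 13.8 ± 0.668 CPM in TET TKO, so its transcript level did not mark that line.

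The 3 clusters stood at very different levels. Of all reads on the 25 genes over the 16 libraries, 94.57% fell on the gamma cluster, 4.37% on the alpha cluster and 1.06% on the beta cluster. These shares include the shKap1 libraries. In shEmpty libraries the alpha cluster had fewer reads than the beta cluster, 31 against 74 in WT, 45 against 48 in DNMT TKO and 34 against 40 in TET TKO. In WT shEmpty cells, per length, Pcdhgc5 had 3.44 ± 0.17 RPKM (CPM per kilobase of exon; SD, n = 3), at percentile 52.8 of the genes tested. Pcdhb22 had 0.127 ± 0.0351 RPKM, at percentile 19.5, and Pcdha11 had 0.0166 ± 0.00714 RPKM, at percentile 6.1. The lengths used are the summed exons of each gene, 24688 bases for Pcdha11 and 28980 for Pcdhgc5, of which 1 transcript holds only a part, so these levels are understated against those of single-exon beta genes. On this scale the gamma cluster stood near the middle of the tested genes in these mESCs, and the alpha and beta clusters near the bottom. Of the 25 genes, 8 had the minimum of 16 reads over the 16 libraries and were tested: Pcdha11, Pcdha3, Pcdhb14, Pcdhb18, Pcdhb19, Pcdhb20, Pcdhb22 and Pcdhgc5. The other 17, all beta genes, had 14 reads or fewer in total and at most 4 in any library, and Pcdhb9 had none.

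**Figure D1:**
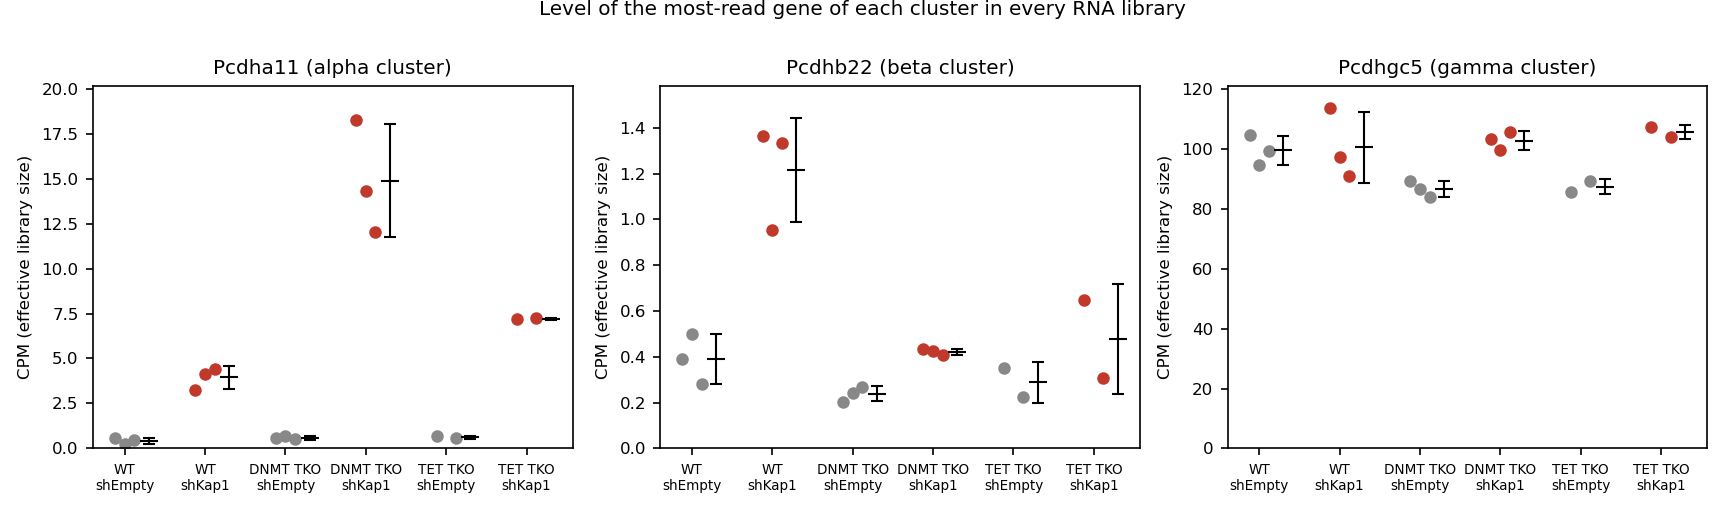
CPM (vertical axes, each from 0) of the most-read gene of each cluster in the 6 groups of RNA libraries. Points are libraries, grey for shEmpty and red for shKap1, and the bar beside them is the mean ± SD; Pcdha11 was higher in every shKap1 library than in any shEmpty library, Pcdhb22 separated in WT and DNMT TKO, and Pcdhgc5 stayed between 83.98 and 113.9 CPM.

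Kap1 knockdown raised the alpha cluster in all 3 genotypes. In WT, Pcdha11 had 10, 6 and 13 reads in the shEmpty libraries and 62, 96 and 83 in the shKap1 libraries. In DNMT TKO it had 11, 20 and 13 reads without knockdown and 381, 305 and 325 with it. In TET TKO the reads were 19 and 15 without and 155 and 141 with knockdown. No shKap1 library overlapped a shEmpty library, within or between genotypes. As levels, these were 0.410 ± 0.176 and 3.94 ± 0.616 CPM in WT, 0.584 ± 0.0970 and 14.9 ± 3.16 CPM in DNMT TKO, and 0.617 ± 0.0752 and 7.21 ± 0.0424 CPM in TET TKO. The fitted log2 change was 3.31 ± 0.28 (SE) in WT, with an adjusted p of 2.64e-08 in edgeR's quasi-likelihood test. These rises were many times their error. The log2 change was 4.65 ± 0.24 in DNMT TKO (adjusted p = 1.76e-10, edgeR) and 3.53 ± 0.29 in TET TKO (adjusted p = 6.81e-08, edgeR). After knockdown Pcdha11 had 0.160 RPKM in WT, 0.604 in DNMT TKO and 0.292 in TET TKO, below Pcdhgc5 in each.

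The rise of the alpha cluster was larger in DNMT TKO than in WT by 1.34 ± 0.41 on the log2 scale, just past the threshold (adjusted p = 0.0312, edgeR). It missed the threshold with limma-voom (1.24, adjusted p = 0.0957) and when only the groups compared entered the fit (1.30, adjusted p = 0.0561). DESeq2 gave 1.29 (adjusted p = 0.0208). Leaving out each library in turn gave adjusted p-values of 0.00899 to 0.123 in edgeR, and the call was lost without WT shEmpty replicate 1 or 3, WT shKap1 replicate 1, or DNMT TKO shEmpty replicate 1 or 3. Trim28 fell less in DNMT TKO than in WT, as given above, and the part of that in the difference was not tested. In TET TKO the effect differed from that in WT by 0.22 ± 0.45 (adjusted p = 0.832, edgeR). Without knockdown Pcdha11 differed from WT by 0.58 ± 0.35 in DNMT TKO (adjusted p = 0.204) and by 0.65 ± 0.38 in TET TKO (adjusted p = 0.232), neither past the threshold in edgeR. The comparisons of DNMT TKO and TET TKO with WT share the WT libraries.

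A low-complexity stretch inside the last constant exon of the alpha cluster was counted separately in the repeat tables, and so gave a second count within the cluster. This GA-rich stretch (37344810 to 37344847) had 0 reads in WT shEmpty and 2 to 4 per library in WT shKap1. In DNMT TKO it had at most 1 read per shEmpty library and 17 to 18 per shKap1 library, and in TET TKO it had 0 and 4 to 7. The reads overlap those of Pcdha11 and are no independent measurement, but they place transcripts in the last constant exon. The gene counts do not say which first exons were joined to it. Pcdha3, whose first exon lies between those of Pcdha11, had 0 to 5 reads per library, 18 in all, and was called in no comparison by edgeR with all libraries. In TET TKO it had 0 and 0 reads without and 4 and 1 with knockdown, which do not overlap (log2 change 4.57 ± 1.73, adjusted p = 0.0563, edgeR). It was called there by limma-voom and by edgeR without DNMT TKO shKap1 replicate 3. Pcdha3 reached the minimum of reads only with those of TET TKO shKap1, the higher group of that comparison. Nothing is therefore read from its change or its calls in TET TKO. A gene on the other strand, Gm10545, overlaps 2790 exonic bases of Pcdha11, and the counting kept strands apart.

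In the beta cluster 2 genes were called, both in WT. The summed counts of the 22 genes were 11, 32 and 31 reads in WT shEmpty and 62, 38 and 46 in WT shKap1, without overlap. In DNMT TKO they were 15, 16 and 17 against 13, 20 and 27, and in TET TKO 26 and 14 against 25 and 13, and both pairs overlap. The gene with most of these reads was Pcdhb22, the last gene of the cluster (37678007 to 37681073). Pcdhb22 had 7, 14 and 8 reads in WT shEmpty and 26, 22 and 25 in WT shKap1, with no overlap, a log2 change of 1.62 ± 0.32 (adjusted p = 0.000406, edgeR). In DNMT TKO it had 4, 7 and 7 reads without and 9, 9 and 11 with knockdown, also without overlap, but the change of 0.79 ± 0.39 did not pass (adjusted p = 0.135, edgeR). In TET TKO the reads were 10 and 6 against 14 and 6, which overlap (0.73 ± 0.46, adjusted p = 0.259, edgeR). The knockdown effect on Pcdhb22 in DNMT TKO minus that in WT was -0.83 ± 0.52 (adjusted p = 0.316, edgeR), so a difference between the genotypes was not shown.

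Pcdhb19 was called in WT as well (log2 change 3.57 ± 1.28, adjusted p = 0.0307, edgeR), but on 0, 0 and 1 reads in shEmpty against 10, 0 and 3 in shKap1. These are a ratio of 15.9 with a 95% interval of 2.38 to 674 for counting error only, and 10 of its 13 shKap1 reads came from 1 library. With 20 reads in all, Pcdhb19 passed the minimum of 16 only through WT shKap1, the group where it was called. Pcdhb19 was not called without that library, WT shKap1 replicate 1, without WT shEmpty replicate 1 or 2, with limma-voom or DESeq2, or with only the groups compared in the fit. Pcdhb14 had 1, 5 and 6 reads in WT shEmpty and 7, 4 and 7 in WT shKap1 (0.88 ± 0.60, adjusted p = 0.249, edgeR), and its groups overlap. Pcdhb18 and Pcdhb20, the latter annotated as a pseudogene, had 0 to 4 and 0 to 3 reads per library and were called in no comparison by edgeR with all libraries. Without WT shEmpty replicate 1, or without DNMT TKO shEmpty replicate 1, Pcdhb18 was called lower in DNMT TKO than in WT without knockdown. Pcdhb18 reached the minimum of 16 reads only with those of WT shEmpty, the higher group of that comparison, so nothing is read from this call. Beta genes are close copies of one another, so reads that match several of them could be lost or assigned to the wrong one, and these low counts are uncertain for that reason too.

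The gamma cluster was called in no comparison. Pcdhgc5 had 104.7, 94.88 and 99.29 CPM in WT shEmpty and 113.9, 97.31 and 90.94 in WT shKap1, which overlap (log2 change 0.02 ± 0.07, adjusted p = 0.881, edgeR). In DNMT TKO it had 89.48, 86.56 and 83.98 CPM without and 103.3, 99.61 and 105.8 with knockdown, and in TET TKO 85.72 and 89.30 against 107.3 and 104.1. Neither pair of groups overlaps, and the log2 changes of 0.25 ± 0.07 (adjusted p = 0.00876) and 0.27 ± 0.08 (adjusted p = 0.0197) in edgeR were under the 2-fold needed for a call. Without knockdown Pcdhgc5 was lower in DNMT TKO than in WT by -0.20 ± 0.07 (adjusted p = 0.0244, edgeR), also under 2-fold.

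In WT the knockdown called 3 of 8 tested members up and none down, beside 10.8% of all 20321 genes called up and 6.54% called down. Of the 3, Pcdhb19 passed the minimum of reads only through WT shKap1, and the median of the 8 given below includes it. In DNMT TKO it called 1 up and none down, beside 10.1% and 2.42%, and in TET TKO 1 up and none down, beside 8.05% and 4.46%. The difference of the knockdown effect between DNMT TKO and WT called 1 up and none down, beside 4.66% and 2.48%. That between TET TKO and WT called none, beside 2.08% up and 2.13% down. Without knockdown no member was called in DNMT TKO, beside 8.23% of genes up and 8.05% down, or in TET TKO, beside 5.66% up and 4.80% down. At an unadjusted p under 0.05 in edgeR, 0 members were lower after knockdown in WT and in DNMT TKO and 1, Pcdhb20, in TET TKO. For the difference of the knockdown effect from that in WT, 1 was lower in DNMT TKO (Pcdhb19), and Pcdhgc5 was higher in both DNMT TKO (0.23 ± 0.10) and TET TKO (0.26 ± 0.11). Without knockdown 2 were lower in DNMT TKO (Pcdhb18 and Pcdhgc5) and 1 in TET TKO (Pcdhgc5). Limma-voom and DESeq2 also called 0 members in these last 3 comparisons. With 8 genes tested, a count of 1 is a single gene and says nothing of the members as a list. The median log2 change of the 8 was 1.25 in WT, -0.14 in DNMT TKO and 0.33 in TET TKO, beside medians of -0.01, 0.02 and -0.01 over all genes tested. It gives a gene of 18 reads the same weight as Pcdhgc5 with 36210.

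**Figure D2:**
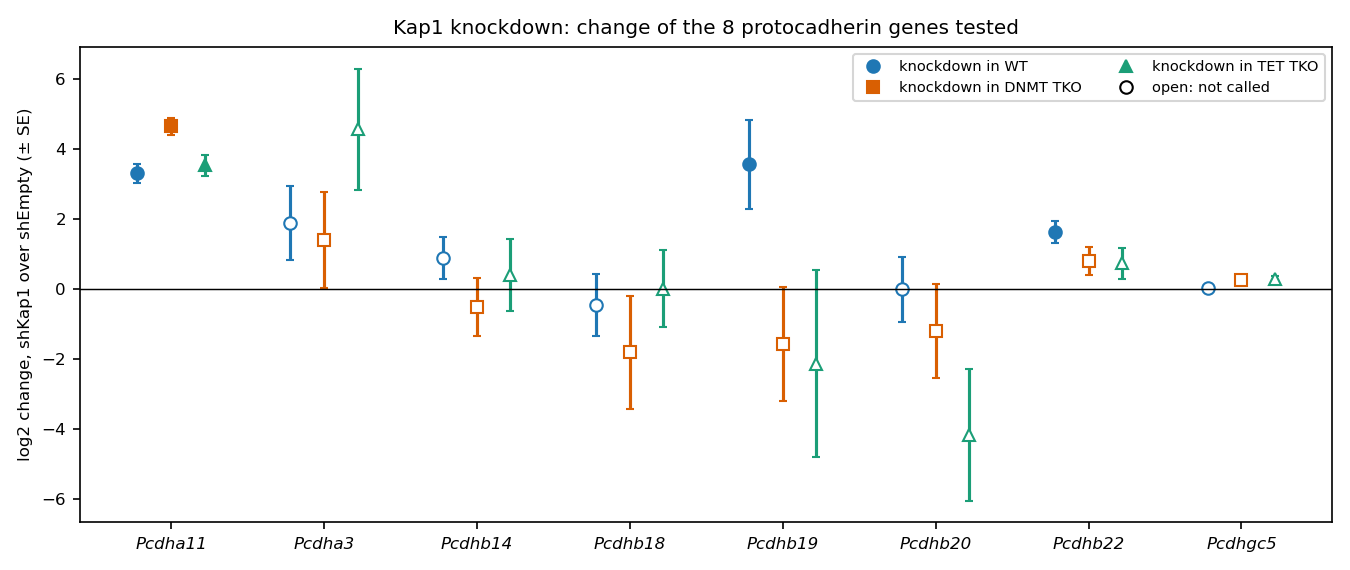
Log2 change on Kap1 knockdown (vertical axis, shKap1 over shEmpty, ± SE of the fit) of the 8 protocadherin genes tested, with WT as circles, DNMT TKO as squares and TET TKO as triangles. Filled symbols were called; Pcdha11 is filled at 3.31, 4.65 and 3.53, Pcdhb22 and Pcdhb19 in WT alone, and the wide bars belong to genes with few reads.

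The genes around the clusters and the lists of genes that follow are read against the shares of all genes called, which were 10.8% up and 6.54% down in WT, 10.1% and 2.42% in DNMT TKO, and 8.05% and 4.46% in TET TKO. Of 44 other genes within 500 kb on either side, 35 were tested. In WT 2 rose, most in the case of Arap3 (log2 change 1.54 ± 0.35, adjusted p = 0.00144, edgeR), a GTPase regulator, and none fell. Their median log2 change was -0.05 in WT, -0.03 in DNMT TKO and -0.06 in TET TKO. In DNMT TKO 1 rose and 1 fell, namely Gm16882 (1.53 ± 0.27, adjusted p = 0.000260, edgeR), which is antisense to exons of Pcdhgc5, and Rell2 (-1.14 ± 0.26, adjusted p = 0.00235, edgeR). In TET TKO Gm16882 alone was called (1.16 ± 0.34, adjusted p = 0.0144, edgeR). The counting used strand, so reads of Gm16882 and Pcdhgc5 are counted apart.

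Few repeats within the clusters had enough reads to be measured, with 7 integrants tested of 271 in the alpha cluster, 5 of 236 in the beta cluster and 29 of 229 in the gamma cluster. An integrant is 1 annotated copy of a transposable element, counted on its own strand. The knockdown called 5 of these 41 up in WT, beside 12.1% of the 123880 integrants tested in all. It called 6 up in DNMT TKO, beside 15.0%, and 12 in TET TKO, beside 14.7%. None of these 41 was called down in edgeR, beside 2.05%, 0.944% and 0.971%. Of 39 integrants tested between the clusters, the knockdown in WT called 2 up and 5 down, with a median log2 change of -0.66, while it called 2 up in DNMT TKO and 3 up in TET TKO with none down. The counts up among the 41 in WT and DNMT TKO are at the background, so nothing is read from them for the integrants as a group. The minimum of reads counted all libraries, so integrants with few shEmpty reads, here and over the genome, entered the test through their shKap1 reads. With a minimum of 160 reads over the 16 libraries, each knockdown called 1 within the clusters. The count of 12 in TET TKO was 5 without TET TKO shEmpty replicate 1, 6 without TET TKO shEmpty replicate 2 and 7 without TET TKO shKap1 replicate 1, and that in WT was 3 without WT shEmpty replicate 3. All 7 tested integrants of the alpha cluster lie on the minus strand, against the direction of the protocadherin genes. Of them 2 were called up in WT, 3 in DNMT TKO and 5 in TET TKO.

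The alpha integrant with most reads was an IAPEz provirus, an intracisternal A-particle retrovirus with both LTRs, of 7121 bases on the minus strand (37141185 to 37148305). It stands between the first exons of Pcdha11, 26.4 kb after the fourth exon block and 9.2 kb before the fifth. It had 1, 0 and 0 reads in WT shEmpty and 8, 10 and 13 in WT shKap1. In DNMT TKO it had no read in any shEmpty library and 75, 33 and 50 in the shKap1 libraries, and in TET TKO no read and then 30 and 28. In WT the ratio was 37.8, with a 95% interval of 6.31 to 1540 for counting error only. Taking 3 reads over the shEmpty libraries as the floor, the rise was at least 56.9-fold in DNMT TKO and at least 25.9-fold in TET TKO. The WT value is a ratio to 1 read and the others are lower bounds, so they give no order of the genotypes. The edgeR test gave adjusted p-values of 1.08e-08, 1.94e-32 and 1.70e-16 in WT, DNMT TKO and TET TKO. IAPEz proviruses have many similar copies, so reads of another copy could be placed here, which was not tested. Both the provirus and Pcdha11 had their highest levels in DNMT TKO shKap1 and their lowest shKap1 levels in WT. Within DNMT TKO shKap1 the provirus had 3.603, 1.552 and 1.854 CPM in replicates 1, 2 and 3 and Pcdha11 18.3, 14.34 and 12.05 CPM, so both were highest in replicate 1 and the other two stood in opposite order. Whether the rise of the provirus differed between genotypes was not tested. A LINE-1 fragment in the alpha cluster, L1M3d, had 0, 0 and 1 reads in DNMT TKO shEmpty and 15, 13 and 10 in DNMT TKO shKap1, without overlap (adjusted p = 2.55e-07, edgeR). L1M3d passed the minimum of reads only through DNMT TKO shKap1, the group where it was called, so nothing is read from this call.

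**Figure D3:**
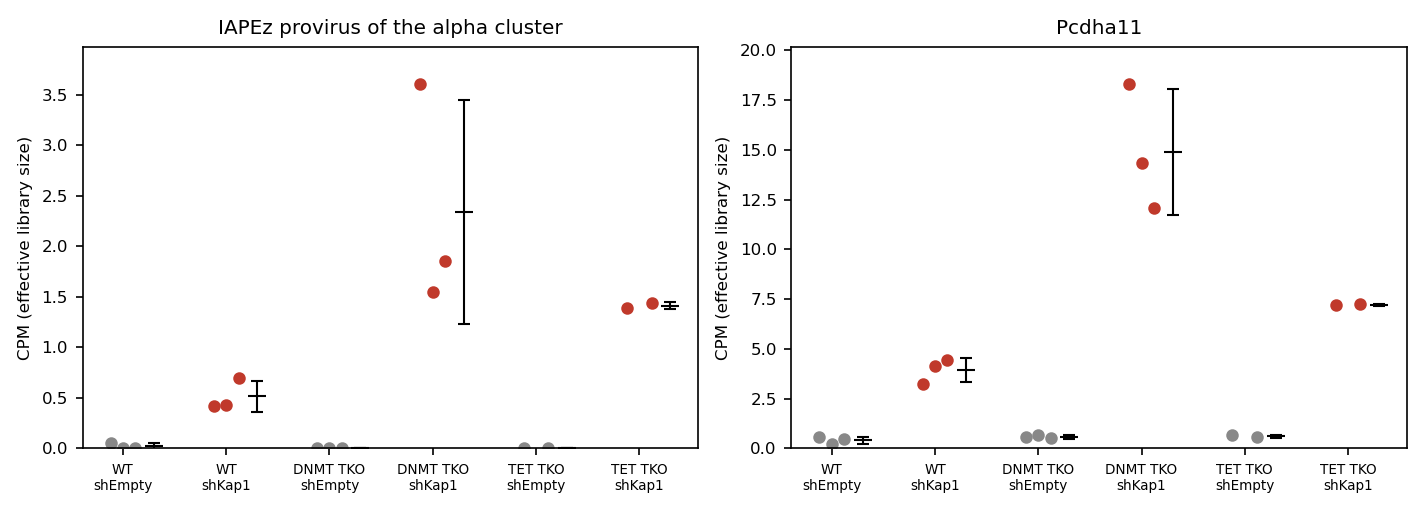
CPM (vertical axes, each from 0) of the IAPEz provirus of the alpha cluster, left, and of Pcdha11, right, in every RNA library. Points are libraries, grey for shEmpty and red for shKap1, with the mean ± SD beside them; in both panels every shEmpty library lies below every shKap1 library and DNMT TKO shKap1 is highest, with 1.552 to 3.603 CPM for the provirus and 12.05 to 18.3 CPM for Pcdha11.

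In the beta cluster all 5 tested integrants lie in the gap between Pcdhb8 and Pcdhb9. The 3 on the minus strand, named L1VL2, Lx2 and RMER19C, were called up in TET TKO alone, on 3 to 6 reads per shKap1 library and none in shEmpty. The other 2 are proviruses on the plus strand. The first, an IAPEz (37523754 to 37530959), lies 6.5 kb after Pcdhb8. It had no read in any shEmpty library, 3, 4 and 3 reads in WT shKap1, 6, 11 and 7 in DNMT TKO shKap1 and 2 and 3 in TET TKO shKap1. Against the same floor these are rises of at least 4.07-fold in WT, 8.64-fold in DNMT TKO and 2.23-fold in TET TKO, of which those in WT and DNMT TKO were called. Having no shEmpty read, this provirus passed the minimum of reads only through the shKap1 libraries, where it was called. The second, a MERVL element (37547806 to 37554200), lies 6.3 kb before Pcdhb9. MERVL is the retrovirus active at the 2-cell stage of the embryo. It had 0, 2 and 0 reads in WT shEmpty and 5, 8 and 6 in WT shKap1, in DNMT TKO 1, 1 and 0 against 4, 8 and 5, and in TET TKO 0 and 1 against 15 and 17. No pair of groups overlaps, and it was called in all 3 genotypes (adjusted p = 0.000987, 0.00480 and 3.05e-07, edgeR). Of the genes on either side, Pcdhb9 had no read in any library and Pcdhb8 had 2 in all. Between these proviruses and Pcdhb22 lie 13 other beta genes.

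Without knockdown, the 3 proviruses had 0 or 1 read per library in DNMT TKO. Of the 39 integrants between the clusters, 1 was higher and 8 were lower in DNMT TKO than in WT without knockdown, with a median log2 difference of -1.25. The 1 that was higher, a LINE-1 copy between the beta and gamma clusters, L1Md_T (37735438 to 37740833), had 4, 14 and 8 reads in WT shEmpty and 35, 52 and 27 in DNMT TKO shEmpty, which do not overlap, a log2 difference of 2.13 ± 0.35 (adjusted p = 5.18e-08, edgeR). Another L1Md_T copy (37789870 to 37795716) was among the 8, with 24, 25 and 37 reads in WT and 9, 4 and 1 in DNMT TKO (-2.57 ± 0.42, adjusted p = 6.59e-08, edgeR). Within the clusters that comparison called 0 integrants up, beside 3.48%, and 3 down, beside 6.45%. That count of 3 was 0 to 2 when any 1 library of the 2 shEmpty groups was left out, and 0 without DNMT TKO shEmpty replicate 3.

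The clusters differed in the chromatin regions they carried. KAP1 regions numbered 16 in the alpha cluster, 5 in the beta cluster and 2 in the gamma cluster, covering 6.60%, 2.06% and 0.739% of each, beside 0.925% of the genome. H3K9me3 regions, all of the set that depends on KAP1, numbered 9, 1 and 0 and covered 10.3%, 2.81% and 0%, beside 1.38% of the genome. H3K4me3, a mark of promoters, had 10, 15 and 31 regions over 3.31%, 4.73% and 21.2%, beside 1.70% of the genome. H3K27me3, the Polycomb mark, had 9, 21 and 16 regions over 9.24%, 18.6% and 26.6%, beside 1.88%. The gamma cluster, the one with most RNA, had the largest share under H3K4me3 and no H3K9me3 region.

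Within the alpha cluster the marks fell on different first exons. Of 10 first exons of 1000 bases or more, 6 overlapped both an H3K4me3 and an H3K27me3 region, and none of these 6 overlapped a KAP1 region. KAP1 regions covered the other 4, of which 1, that of Pcdha3, also had H3K27me3 and 3 had neither H3K4me3 nor H3K27me3. Those 3 are neighbours, the exon blocks at 37157534 to 37160014, 37164974 to 37167355 and 37170512 to 37172905. They come after the IAPEz provirus in the direction of the protocadherin genes, which is opposite to that of the provirus. The first and the last of them also lay under H3K9me3. The provirus itself lay under the longest H3K9me3 region of the alpha cluster, of 9599 bases (37139601 to 37149199), with KAP1 regions over both of its ends. In the gamma cluster all 8 first exons that form a block of their own overlapped H3K4me3. Of these 6 overlapped H3K27me3, with no KAP1 or H3K9me3 region over any. Block 9 (37979200 to 37984733), of 5534 bases and used by all 10 transcripts, was taken as constant and overlapped KAP1 and H3K4me3 regions. First exons merged into that block could not be read apart. In the beta cluster all 5 KAP1 regions and the H3K9me3 region lay over the IAPEz provirus, and none overlapped a gene.

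**Figure D4:**
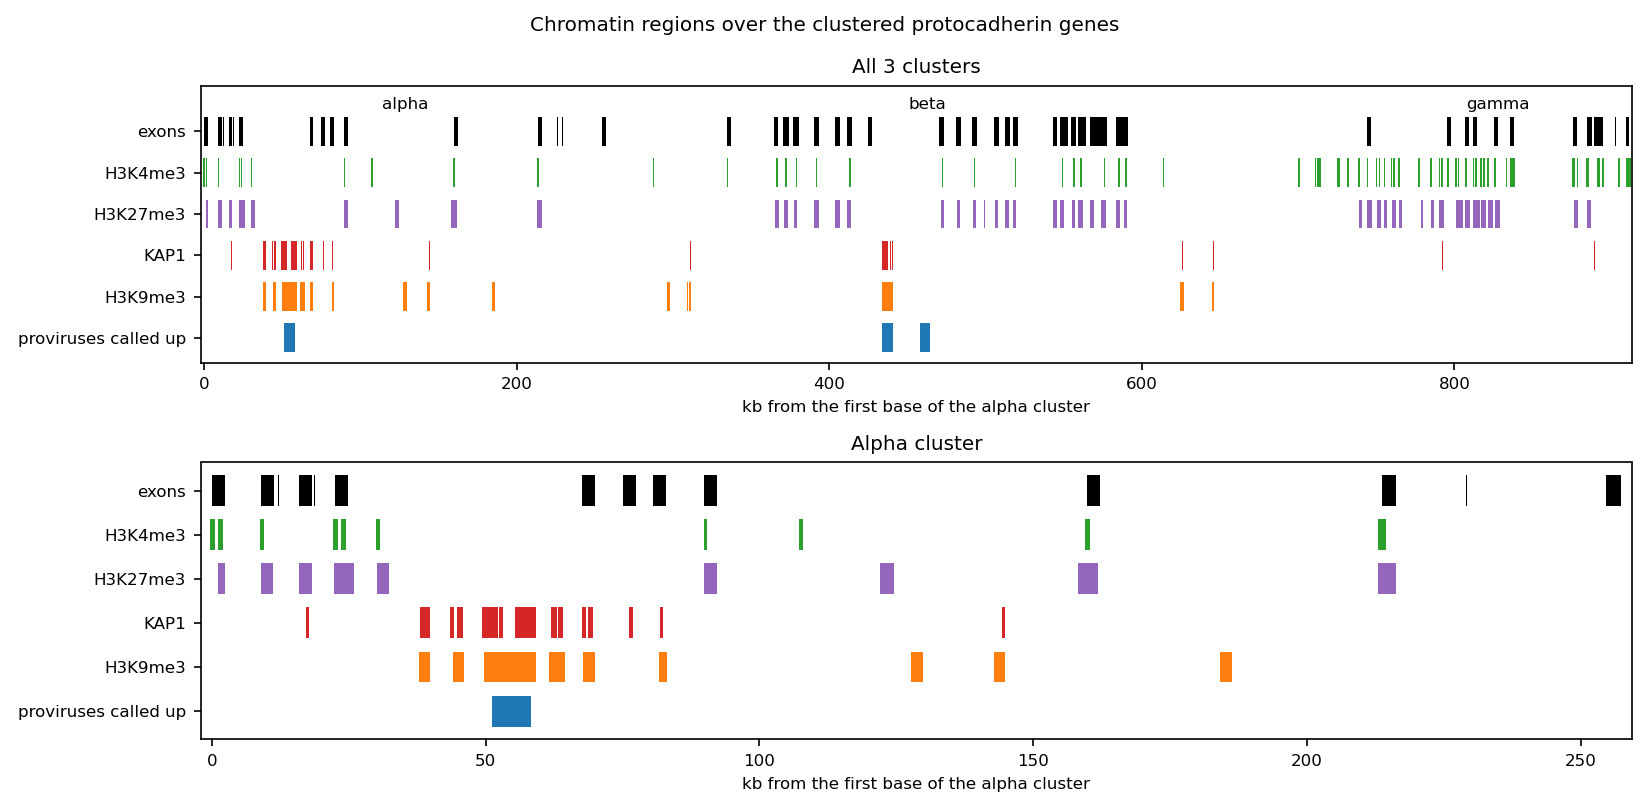
Positions of exons, H3K4me3, H3K27me3, KAP1 and H3K9me3 regions and the 3 proviruses called up on knockdown, over all 3 clusters (top) and the alpha cluster alone (bottom), in kb from the first base of the alpha cluster. Regions too short to see are drawn at a minimum width; KAP1 and H3K9me3 gather around the provirus of the alpha cluster, where 3 first exons lack H3K4me3 and H3K27me3.

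Within 1000 bases of the annotated starts of the 25 genes H3K27me3 was common. No member had a KAP1 or H3K9me3 region within 1000 bases of its start, beside 4.40% and 1.20% of the other 20313 genes tested. For Pcdha11 and Pcdhgc5 the start is the first base of the merged gene, so the starts of their other first exons are not covered here. KAP1 regions did overlap 4 of the 10 alpha first exons, and H3K9me3 regions 2, as given above. H3K27me3 was present there in 21 of 25 members (84.0%), beside 15.9% of the other tested genes and 9.14% of the genes under the minimum of reads. H3K4me3 was present in 3 of 25 (12.0%), beside 69.3% and 10.7%. The counts of H3K4me3 and KAP1 depend on the window and the peaks, since within 2000 bases 17 members had H3K4me3 and 1 had KAP1, and with only the H3K4me3 peaks of replicate 1 that scored above their median none had H3K4me3 within 1000 bases. Of the 25 members 17 were under that minimum.

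In the beta cluster both H3K4me3 and H3K27me3 lay mostly inside the genes. The H3K27me3 regions began after the annotated start in all but Pcdhb20, and reached into the window around it. Of the 22 beta genes, 15 overlapped an H3K4me3 region, 20 an H3K27me3 region, 14 both, and 1, Pcdhb8, neither. Over the other 20313 genes tested, 73.9% overlapped an H3K4me3 region and 21.4% an H3K27me3 region, so the count with H3K4me3 is near that share and nothing is read from it for the beta genes. The centre of the H3K4me3 region stood at a median of 1951 bases after the annotated start, and for the 14 genes other than Pcdhb1 it was 1843 bases or more after it. Over 366 other tested genes of chromosome 18 with such a region that median was 328 bases. The centre of the H3K27me3 region stood at a median of 1505 bases. The 7 genes without H3K4me3 included Pcdhb19, and Pcdhb22 carried both marks. Called separately, H3K4me3 overlapped 15 beta genes in replicate 1 and 19 in replicate 2, and H3K27me3 20 and 22. The ratio of observed to expected CpG was a median of 0.398 around their starts and 0.501 from 1000 to 2000 bases after it, beside 0.664 around the starts of 474 other genes of chromosome 18.

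**Figure D5:**
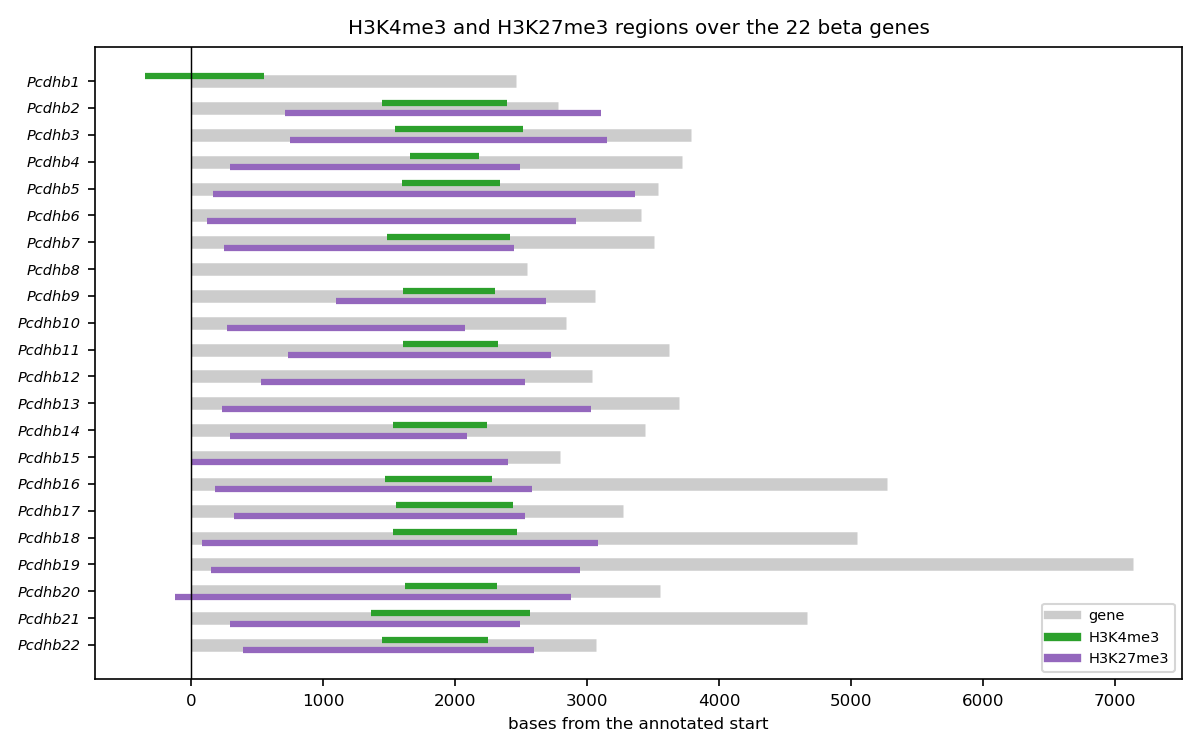
Each of the 22 beta genes (grey, in genome order) with its H3K4me3 (green) and H3K27me3 (purple) regions, in bases from the annotated start. H3K4me3 centres of all but Pcdhb1 lie between 1843 and 2026 bases, within the H3K27me3 region of the same gene.

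Reads of 5hmC, the product of TET enzymes, were more numerous after knockdown over the H3K9me3 regions of both IAPEz proviruses. The study's methods name no filter for uniquely mapped hMeDIP reads. Reads of other IAPEz copies could therefore be counted here, which was not tested. Over the H3K9me3 region of the alpha provirus the 5hmC library had 207 reads in shEmpty (95% Poisson interval 179.8 to 237.2) and 495 in shKap1 (452.3 to 540.6), while the inputs had 183 and 218. Relative to input, with each library scaled to its reads over all the region sets counted, this was a log2 change of 1.34. Over the H3K9me3 region of the beta provirus the 5hmC reads were 92 (74.2 to 112.8) and 285 (252.9 to 320.1), a log2 change of 1.60. KAP1 regions of the alpha cluster with enough input changed by a median of 0.84, higher in 15 of 15. Those of the beta cluster changed by 1.58, in 5 of 5, and those of the gamma cluster by 1.33, in 2 of 2. All 5 of the beta cluster lie over its IAPEz provirus, so they are parts of 1 element already given above and not separate loci. Over all 25992 KAP1 regions of the genome with enough input the median was 0.64 and 77.2% were higher. The 9 H3K9me3 regions of the alpha cluster changed by a median of 0.51, higher in 7, beside 0.66 over the genome, where 80.9% were higher. That count is near the genome share, so nothing is read from it. H3K4me3 regions of the beta cluster, which lie in the genes, changed by a median of 0.07, higher in 8 of 15. Those of the gamma cluster changed by 0.67, higher in 26 of 31, and those of the alpha cluster by 0.20, higher in 6 of 10. Over the genome H3K4me3 regions changed by a median of 0.39 and 71.5% were higher. H3K27me3 regions were higher in 8 of 9 in the alpha cluster (median 0.43), 19 of 21 in the beta cluster (0.38) and 14 of 16 in the gamma cluster (0.81). Over the genome their median was 0.27 and 68.6% were higher. There was 1 library per condition, so intervals cover counting error only and no difference could be tested. The sizes of these changes, and for some sets their direction and counts, rest on scaling. With scaling to reads in H3K4me3 regions, the median over the 134 regions of the clusters was 0.12 in place of 0.51. The KAP1 regions were then higher in 12 of 15 in the alpha cluster (median 0.45), 4 of 5 in the beta cluster (1.19) and 2 of 2 in the gamma cluster (0.94), beside a median of 0.26 over the genome. The alpha H3K9me3 regions were higher in 5 of 9 (0.12, beside 0.27 over the genome). The median of the beta H3K4me3 regions turned to -0.32, higher in 4 of 15, while the gamma H3K4me3 regions were higher in 20 of 31 (0.28). That of the alpha H3K4me3 regions turned to -0.19, higher in 2 of 10. The H3K27me3 regions were then higher in 6 of 9 in the alpha cluster (0.04), 10 of 21 in the beta cluster (-0.01) and 12 of 16 in the gamma cluster (0.42), beside -0.12 over the genome. The share of regions higher over the genome was not computed under this scaling, so these counts have no background beside them.

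Other genes of the cadherin superfamily were called in both directions. Of 12 non-clustered protocadherins, which are single genes with a like extracellular part, 8 were tested and 4 rose in WT, 2 in DNMT TKO and 1 in TET TKO, with none down, beside 10.8%, 10.1% and 8.05% of all genes called up. Pcdh7 rose most in WT and in DNMT TKO (log2 change 3.71 ± 0.79 and 3.76 ± 0.95, adjusted p = 0.000813 and 0.00479, edgeR), and Pcdh17 was the 1 called in TET TKO (2.39 ± 0.55, adjusted p = 0.00279, edgeR). Of 17 classical cadherins tested, 4 rose and 2 fell in WT, 4 rose and 1 fell in DNMT TKO, and 2 rose and 2 fell in TET TKO. The 2 of 17 up and 1 of 8 up in TET TKO are near the share of all genes. Cdh10 rose most in WT and in TET TKO (3.24 ± 0.37 and 2.64 ± 0.45, adjusted p = 1.22e-06 and 0.000215, edgeR) and Cdh5 in DNMT TKO (2.83 ± 0.61, adjusted p = 0.00147, edgeR). Of 32 tested regulators of cluster architecture and silencing, 3 rose and 1 fell in WT, near or below the 10.8% and 6.54% of all genes. The fall was Trim28, and Tet3 (1.80 ± 0.14, adjusted p = 1.76e-08, edgeR), an enzyme that oxidises methylcytosine, rose most. In DNMT TKO only Trim28 was called, and in TET TKO Trim28 fell and Dnmt3a rose (1.26 ± 0.17, adjusted p = 3.88e-05, edgeR). Ctcf was 282 ± 9.92 CPM in WT shEmpty and 250.3 ± 12.8 in WT shKap1.

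Markers of other cell states moved on knockdown, and their part in the changes of the clusters was not tested. In bulk RNA, more cells expressing a gene and more RNA per cell cannot be told apart. In WT, 3 of 7 tested mESC markers fell, and their summed level went from 3647 to 3858 CPM in shEmpty to 2200 to 2357 in shKap1. Neural progenitor markers rose in 3 of 5, from 38.99 to 49.13 CPM summed to 104.8 to 123.7. Neural progenitor markers rose in 4 of 5 in DNMT TKO and 1 of 5 in TET TKO. Of neuronal markers 0 of 6 rose and 2 fell, from 306.2 to 375 CPM summed to 106.7 to 112.1, and no neuronal marker rose in DNMT TKO or TET TKO either. In DNMT TKO neural progenitor markers were at 85.77 to 105.3 CPM in shEmpty and 105.8 to 134.8 in shKap1. The 4 tested genes of the 2-cell-like state rose in all 3 genotypes. Their summed level went from a range of 11.33 to 22.01 CPM in WT shEmpty to one of 179.3 to 198.7 CPM in WT shKap1. In DNMT TKO the ranges were 5.434 to 16.81 and 53.22 to 123.3 CPM, and in TET TKO 7.849 to 8.883 and 531.9 to 552.2 CPM. DNMT TKO shKap1, with the most alpha RNA, had the least of these among the shKap1 groups. In WT, where 10.8% of all genes were called up and 6.54% down, of 5 mesoderm markers 1 fell, of 5 endoderm markers 1 rose and 1 fell, of 4 trophoblast markers 2 rose and 1 fell, and of 5 fibroblast markers 1 rose and 1 fell. In lists this short, 1 gene is already a larger share than that.

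Across the 16 libraries, the genes outside the clusters whose log2 CPM followed the summed alpha counts most closely were Sult2a4, Mfap3l, Gm1110, Hamp2 and Gramd1c, with Pearson's r of 0.984 to 0.987 over 15673 genes. For the beta cluster they were Rnf41, Tspyl4, Lysmd3, Strn and Baiap2l1 (r of 0.888 to 0.905). These are descriptions over libraries that fall into 6 groups, and libraries of a group share genotype and hairpin.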

How the data were processed

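RNA-seq, ChIP-seq and hMeDIP-seq values were those deposited. According to the study's methods and processing notes, RNA reads were aligned to mm9 with HISAT2 2.0.1 and counted by strand with featureCounts (version 1.5.1 in the notes, 1.5.0-p1 in the file headers). The deposited RNA and hMeDIP values are raw counts made by the authors. Deposited peak scores, from MACS 1.4 for H3K4me3, were used only to rank peaks. KAP1 and H3K9me3 regions came from earlier data and were read from the hMeDIP tables. The 4 libraries of hMeDIP replicate 2 were left out, because label and file name disagreed on what each held.

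Counts were fitted in edgeR 4.0.16 (R 4.3.3), with TMM scaling, at least 16 reads over the 16 libraries, robust quasi-likelihood F tests over all libraries and Benjamini-Hochberg adjustment. A call needed an adjusted p under 0.05 and a change of at least 2-fold. Limma 3.58.1 and DESeq2 1.42.0 were alternatives. Repeats took library sizes and factors from the genes. 5hmC change used a pseudocount of 1 read and at least 10 input reads. The fits were tested on simulated data.

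Same-numbered libraries deviated together in WT (correlations 0.412, 0.218 and 0.233 between hairpins) and DNMT TKO (0.493, 0.304 and 0.162). So did same-numbered shEmpty libraries of WT and DNMT TKO (0.453, 0.248 and 0.268). In TET TKO, with 2 pairs, the hairpins did not (-0.020 for both). This pairing was inferred from the values. The main fits held no term for it, and a term for replicate number entered only an alternative fit, the replicate block. Methods name replicates as independent experiments. Members and lists were chosen with earlier results of these data known. Values per library were named for the most-read members of each cluster, and other genes by the largest change called. Gene libraries held 18108431 to 29373696 reads, and intervals cover counting error only. Sequences were not used here.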

Additional observations from a re-analysis of the deposited data

Results flagged for a closer look

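The difference of the knockdown effect on Pcdha11 between DNMT TKO and WT was 1.34 on the log2 scale (adjusted p = 0.0312, edgeR), a difference between genotypes just past the threshold. The call was lost with limma-voom, with only the groups compared in the fit, and without certain single libraries, as given above. Every DNMT TKO shKap1 library, at 12.05 to 18.3 CPM, lay above every WT shKap1 library, at 3.25 to 4.43 CPM, while the shEmpty libraries of the 2 lines overlapped. Trim28 was at 427 CPM in DNMT TKO shKap1 and at 165 CPM in WT shKap1, and the part of that in the difference was not tested. With 3 or fewer libraries in a group, no sample was tested as standing apart from its group.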

How the results depend on the processing

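Of 722 values recomputed under alternatives, 681 were counted as the same, among them all those with the replicate block (24 values). A log2 change was counted so if its direction and call held, while a count or the 5hmC median could shift somewhat. The loss of Pcdhb19 in WT with limma-voom or DESeq2, and the smaller 5hmC median with H3K4me3 scaling, are thus among the 681. With the replicate block Pcdha11 had a log2 difference of 1.32 between DNMT TKO and WT (adjusted p = 0.0352, edgeR). With no fold threshold, members called became 2 in DNMT TKO, 2 in TET TKO and 1 for DNMT TKO minus WT without knockdown. With limma-voom they were 2 in TET TKO and 0 for the difference between DNMT TKO and WT, which was also 0 with only the groups compared. Leaving out 1 library at a time gave 1 to 2 in TET TKO, 0 to 2 for that difference and 0 to 1 for DNMT TKO minus WT without knockdown. Pcdhgc5 in WT turned from 0.02 to -0.02 without WT shEmpty replicate 2 and to -0.06 without WT shKap1 replicate 1, in a range of -0.06 to 0.10. Requiring 160 reads left 1 integrant within the clusters in each knockdown and 0 for DNMT TKO minus WT, where repeat-based TMM also gave 0. Without 1 library the integrants called numbered 3 to 5 in WT, 4 to 7 in DNMT TKO, 5 to 12 in TET TKO and 0 to 3 for DNMT TKO minus WT without knockdown. With a window of 2000 bases, 1 member had KAP1 and 17 had H3K4me3 at the start, and with the higher-scoring H3K4me3 peaks of replicate 1 none had. The cause of these shifts was not tested. Most beta genes were under the minimum of reads and were not tested for a change.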
